A study of Mus musculus with 6 samples.

Results

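The genes of adipose stromal progenitors were examined in gonadal white adipose tissue (gWAT) of mice on a normal chow diet (NCD) or a high-fat diet (HFD). They are 10 of the 19790 genes in the count table, chosen as surface proteins used to recognise or sort these cells: *Pdgfra*, *Pdgfrb*, *Dpp4*, *Pi16*, *Cd34*, *Ly6a*, *Ly6c1*, *Icam1*, *F3* and *Dlk1*. All 10 were found and all 10 passed the filter on low counts. RNA sequencing covered the whole tissue of 6 mice labelled wild-type and of strain C57BL/6, 3 on each diet for 8 weeks. Both diets were given with free access to food and water, and the labels name no other treatment. The labels put the mice at 6 weeks of age when the diets began, which differs from the age in the study's methods. The third HFD mouse carries the number 4 in another label. In whole tissue, fewer cells of a type and less RNA per cell cannot be told apart.

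Adipose progenitors are fibroblast-like cells of the stroma and vessel walls from which new adipocytes form. PDGFRA, the receptor for PDGF ligands on fibroblastic cells, is the usual marker of the whole population, while PDGFRB is shared with the pericytes that wrap small vessels. Interstitial progenitors carry DPP4 and PI16, preadipocytes committed to the adipocyte fate carry ICAM1, and a population that restrains adipogenesis carries CD142, the product of *F3*. CD34, LY6A (Sca-1) and LY6C1 are sorting antigens that endothelial cells also carry, and DLK1 (Pref-1) is a brake on preadipocyte differentiation.

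*Icam1* was 3.24-fold higher on HFD and was the 1 member of 10 that passed the test across all genes (edgeR, adjusted p = 0.0228). Across all 15241 genes tested, 7.47% passed in either direction and 5.58% passed as higher on HFD. Leaving out the first NCD mouse, 2 of 10 members passed, *Icam1* and *Ly6c1*, both higher on HFD. In that fit 20.9% of all 15510 genes passed, and 10.7% passed as higher, so the share of members called was close to the background. Counting those that passed, 8 of 10 members had a log2 fold change above 0 with all 6 mice and 9 of 10 without the first NCD mouse. The median log2 fold change of the members was 0.72, beside -0.08 over all genes tested. Without the first NCD mouse these medians were 0.62 and 0.02.

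Library depth was between 49575113 and 66360046 counts. The first NCD library stood apart from the others. In it, 11 secretory genes of the seminal vesicle, a gland that lies beside gonadal fat in males, held 58.6% of all counts. They held 11.2% and 2.30% in the second and the third NCD libraries, and at most 1.21e-05% in each HFD library. The trimmed-mean (TMM) scaling factor was 0.496 in the first NCD library and 1.02 to 1.27 in the others. Levels are given as CPM (read counts scaled to library size, here with TMM), in the order of the replicates, and results are given with and without that library. Adipocyte markers were high in all 6 libraries, with a sum over 8 genes of 2758 CPM in the first NCD library and 6365 to 13864 CPM in the rest.

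**Figure D1:**
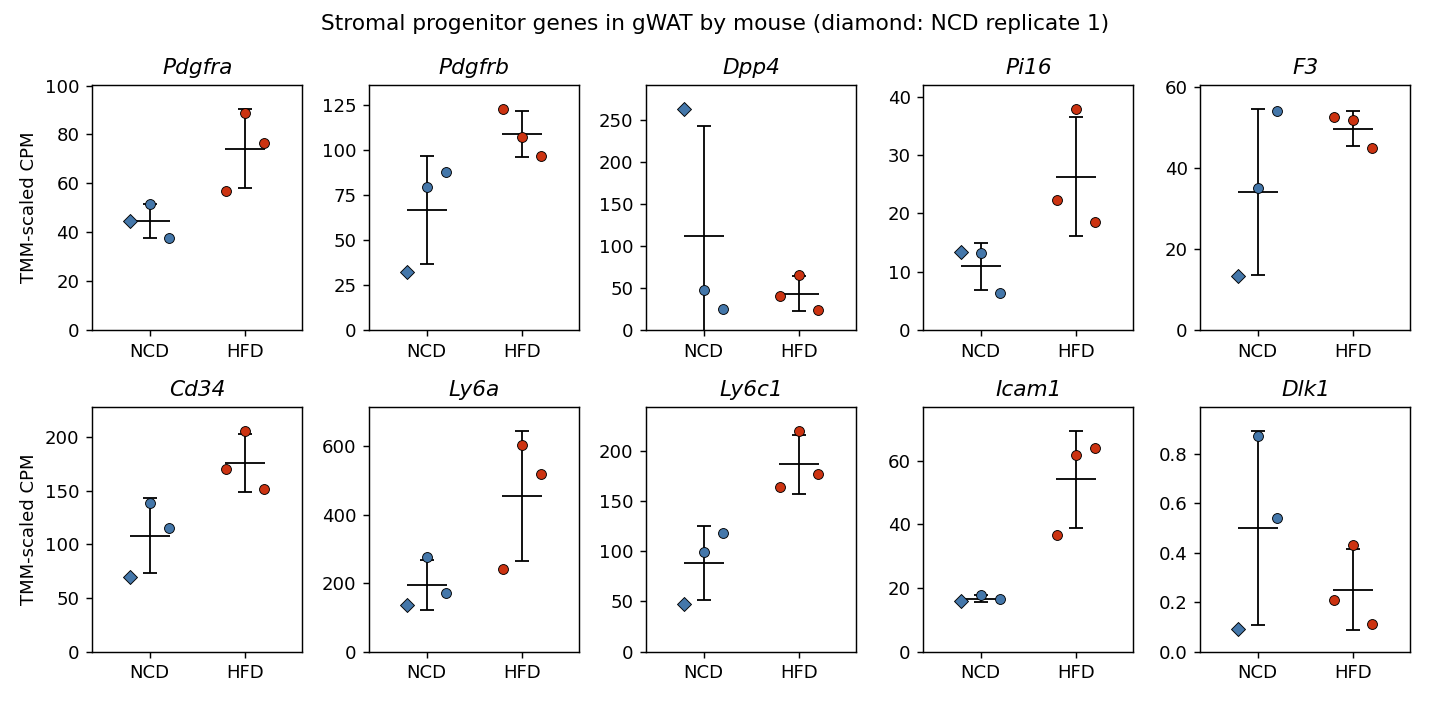
TMM-scaled CPM of the 10 progenitor genes, 1 panel per gene, with 1 point per mouse, the diets on the horizontal axis and the mean and SD of 3 mice beside the points. The first NCD mouse, drawn with its own marker, is high for *Dpp4* (263 CPM) and low for *Pdgfrb* (32.2 CPM), and error bars are cut at 0.

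*Pdgfra* (chr5:75151322-75198206, GRCm38.p6) encodes the receptor for PDGF ligands that defines the fibroblastic stroma. Its level was 44.6, 51.5 and 37.7 CPM in the NCD mice and 56.9, 88.8 and 76.6 CPM in the HFD mice. Every HFD mouse lay above every NCD mouse, and the first NCD mouse lay between the other NCD mice. Without TMM scaling the first was the lowest of the NCD mice, at 22.1 CPM beside 52.6 and 40.4 CPM. The log2 fold change was 0.73 ± 0.22 (SE, n = 3 per diet) with an adjusted p of 0.0881 (edgeR), so the difference did not pass. Without the first NCD mouse the change was 0.75, with an adjusted p of 0.0777.

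*Pdgfrb* (chr18:61045127-61085067), the receptor shared with pericytes, stood at 32.2, 79.6 and 87.7 CPM on NCD and at 122, 107 and 96.7 CPM on HFD. The diets did not overlap, but the first NCD mouse was far below the other two. The log2 fold change of 0.71 (95% interval -0.21 to 1.63) had an adjusted p of 0.261 by edgeR. It was 0.39 without the first NCD mouse, with an adjusted p of 0.103. Mural marker genes, 9 genes of pericytes and smooth muscle, summed to 5226, 1321 and 1185 CPM on NCD and to 996, 823 and 686 CPM on HFD. *Pdgfrb* was thus lowest in the library where the sum was highest, and *Acta2*, *Des*, *Myh11* and *Tagln* were highest there. *Abcc9*, *Cspg4*, *Kcnj8*, *Mcam* and *Rgs5*, like *Pdgfrb*, were lower there than in both other NCD mice. The part of the mural markers in the *Pdgfrb* result was not tested.

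Of the 4 PDGF ligand genes, the genes whose products bind these receptors, none passed (edgeR, 0 at an unadjusted p under 0.05, 0 by DESeq2). *Pdgfa* had a log2 fold change of 0.46 (adjusted p = 0.253) and *Pdgfb* of 0.62 (adjusted p = 0.452). For *Pdgfc* it was 0.16 (adjusted p = 0.754) and for *Pdgfd* -0.13 (adjusted p = 0.841). By edgeR neither the receptors nor their ligands passed with all 6 mice, while DESeq2 called *Pdgfra* (adjusted p = 0.0199). Without the first NCD mouse, 1 ligand had an unadjusted p under 0.05 and none passed after adjustment.

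*Dpp4* (chr2:62330073-62412315) encodes a surface peptidase of interstitial progenitors that epithelial cells of several organs carry too. It was at 263, 47.1 and 24.9 CPM on NCD and at 40.9, 65.2 and 23.6 CPM on HFD. The first NCD mouse held 7.30 times the mean of the other two NCD mice, and without it the diets overlapped fully. The sign of the log2 fold change turned, from -1.37 (95% interval -3.58 to 0.85, adjusted p = 0.354, edgeR) with all 6 mice to 0.28 (-0.88 to 1.44, adjusted p = 0.700) without that mouse. Epithelial marker genes, 8 keratins, claudins and adhesion genes, summed to 1250, 131 and 34.0 CPM on NCD and to 28.1, 118 and 40.8 CPM on HFD. The first NCD library was thus the highest for *Dpp4* and for these markers, and their part in the *Dpp4* level was not tested. *Dpp7*, an intracellular relative, was the 1 of 5 tested genes of the DPP4 family that passed, with a log2 fold change of 1.06 (adjusted p = 0.036, edgeR) and 0.95 without the first NCD mouse (adjusted p = 0.017).

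*Pi16* (chr17:29318796-29328903), a member of a peptidase inhibitor family that marks the same interstitial cells, was at 13.4, 13.1 and 6.25 CPM on NCD and at 22.3, 37.8 and 18.6 CPM on HFD. Every HFD mouse was above every NCD mouse. The mean was 10.9 ± 4.06 CPM on NCD and 26.3 ± 10.2 CPM on HFD (SD, n = 3). Its log2 fold change was 1.27 (95% interval 0.29 to 2.24) and missed the threshold, with an adjusted p of 0.103 (edgeR), as it did without the first NCD mouse (1.45, adjusted p = 0.0693). Neither *Pi16* nor *Dpp4* passed, and without the first NCD mouse both log2 fold changes were above 0. Within each library the ratio of *Dpp4* to *Pi16* was 19.6, 3.59 and 3.98 on NCD and 1.83, 1.72 and 1.27 on HFD, with no overlap between the diets. This pair was chosen after its values were seen. The mean log2 ratio differed by -2.04, and by -1.25 without the first NCD mouse. In both cases the exact two-sided permutation p was 0.1, the smallest that this many mice can give. As the pair was picked on these values, that p is no test of it, and no share over other gene pairs was computed. The second and the third NCD libraries still held seminal vesicle counts (11.2% and 2.30%), whose part in the ratio was not tested.

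Of 10 other genes of interstitial progenitors, 1 passed with all 6 mice. It was *Anxa3*, an annexin, at 29.2, 37.6 and 38.6 CPM on NCD and 95.6, 99.1 and 87.1 CPM on HFD (log2 fold change 1.42, adjusted p = 0.021, edgeR). The median over the list was -0.16, beside -0.08 over all genes, and its sign turned without the first NCD mouse, to 0.14 beside 0.02. In that fit 1 gene of the list passed again, and it was *Anxa3* (adjusted p = 0.005, edgeR). Mesothelial markers, 7 genes of the cells that line gonadal fat, summed to 382, 204 and 132 CPM on NCD and to 289, 675 and 222 CPM on HFD. *Krt19* (134, 30.6 and 10.9 CPM on NCD) and *Upk1b* (151, 39.5 and 24.4 CPM) were highest in the first NCD mouse. The rest were highest in the second HFD mouse. Only *Msln* passed, as higher in both fits (log2 fold change 2.22, adjusted p = 0.029, and 2.26 without the first NCD mouse, adjusted p = 0.023, edgeR). The sum was highest in the second HFD mouse, which was also the highest for *Pi16*. The part of these markers in that level was not tested.

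**Figure D2:**
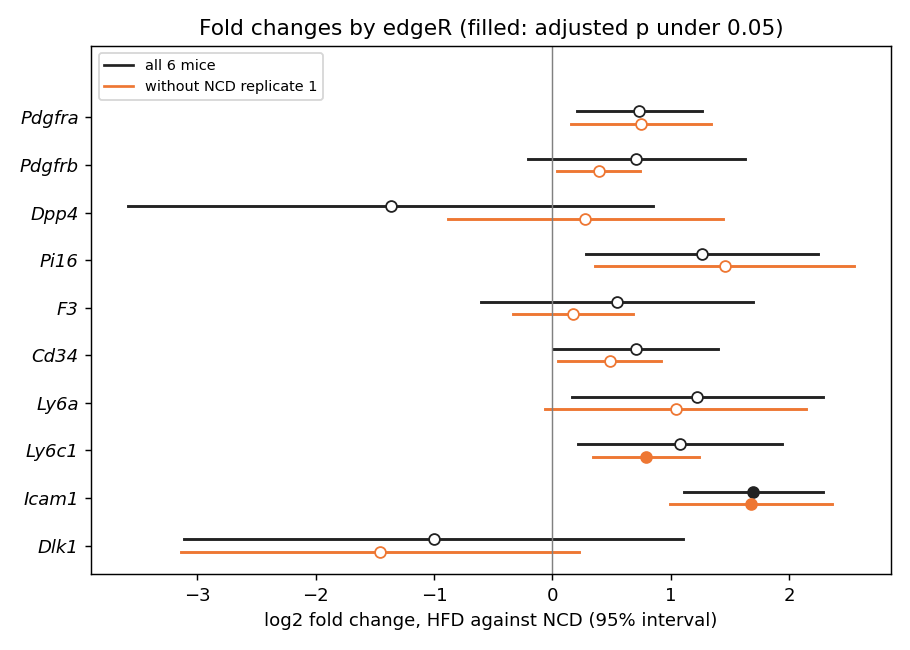
Log2 fold change of each progenitor gene on HFD against NCD with its 95% interval (edgeR), for all 6 mice in black and without the first NCD mouse in orange; a filled point has an adjusted p under 0.05. *Icam1* is filled in both fits, *Ly6c1* in 1 of them, and *Dpp4* moves from -1.37 to 0.28.

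*Icam1* (chr9:21015940-21028814) encodes the adhesion molecule of committed preadipocytes, which endothelium and leukocytes also carry and which inflammatory signals induce. It stood at 15.9, 17.8 and 16.5 CPM on NCD and at 36.6, 61.8 and 63.9 CPM on HFD. The NCD mice were close together, the first included, and the lowest HFD mouse had more than the highest NCD mouse. Without TMM scaling the NCD mice stood at 7.86, 18.1 and 17.7 CPM, so the closeness of the first depends on that scaling. Means were 16.7 ± 0.97 CPM and 54.1 ± 15.2 CPM (SD, n = 3). The log2 fold change was 1.70 ± 0.24 (SE), with a 95% interval of 1.11 to 2.28, and 1.68 without the first NCD mouse (adjusted p = 0.0149, edgeR). Leaving out any other mouse kept the change between 1.57 and 1.92 but raised the adjusted p to at most 0.0983, above the threshold each time.

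The bases in front of the *Icam1* start are shown because the gene is the member that passed, and because they hold known motif forms. They are the 250 bases upstream of the RefSeq start, chr9:21015690-21015939 on the plus strand of GRCm38.p6. Capitals mark the NF-kB form GGAAATTCC, which begins 153 bases before the start, and a match to the STAT form TTCNNNGAA, 42 bases before it.
Icam1 upstream: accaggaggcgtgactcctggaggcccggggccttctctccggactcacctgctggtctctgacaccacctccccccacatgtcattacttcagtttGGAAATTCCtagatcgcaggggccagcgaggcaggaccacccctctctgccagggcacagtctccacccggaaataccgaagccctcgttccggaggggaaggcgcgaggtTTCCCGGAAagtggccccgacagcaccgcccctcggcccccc
Both strands were searched. GGAAATTCC was in 94 of all 32851 windows of that length (0.286%) and TTCNNNGAA in 2306 (7.02%). Among the 8 members with a window, *Icam1* alone held either form. A match describes the letters and is no evidence of binding.

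Several genes of ICAM1's binding partners and relatives passed too. Of 6 tested genes of integrins and related adhesion molecules, 4 passed as higher with all 6 mice and 6 did without the first NCD mouse. The other two with all 6 mice were *Itgal*, the alpha chain of a leukocyte integrin that binds ICAM1 (log2 fold change 1.18, adjusted p = 0.054, edgeR), and *Icam2* (0.92, adjusted p = 0.170). *Itgb2*, the beta chain of the leukocyte integrins that bind ICAM1, went from 22.7, 51.6 and 47.0 CPM on NCD to 409, 213 and 250 CPM on HFD (log2 fold change 2.85, adjusted p = 0.024, edgeR). *Itgam*, an alpha chain that pairs with it on myeloid cells, had a log2 fold change of 2.64 (adjusted p = 0.024). Macrophage markers, 8 genes, summed to 347, 762 and 709 CPM on NCD and to 3131, 1760 and 2126 CPM on HFD. *Icam1* was thus higher in the same 3 mice as this sum. Within HFD, *Icam1* was lowest in the first mouse, where *Adgre1*, *Cd68*, *Csf1r*, *Itgax*, *Lyz2*, *Mertk* and the sum were highest. The markers *Cd14* (39.9, 74.6 and 124 CPM on HFD) and *Fcgr1* (65.4, 146 and 236 CPM) were lowest in that mouse. The part of the macrophage markers in the *Icam1* result was not tested.

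Among 8 other genes of committed preadipocytes, none passed with all 6 mice (edgeR, 0 at an unadjusted p under 0.05, 0 by DESeq2). Without the first NCD mouse *Pparg*, the nuclear receptor that drives adipogenesis, fell by 1.11 on the log2 scale (adjusted p = 0.012, edgeR). It stood at 53.6, 253 and 295 CPM on NCD and at 136, 136 and 105 CPM on HFD. *Pparg* is also high in mature adipocytes. The first NCD mouse was the lowest for it and for the adipocyte markers. Without that mouse 3 of the 8 adipocyte markers passed as lower (*Lipe*, *Plin1* and *Slc2a4*) and none as higher (edgeR). Their sum was 10547 and 13864 CPM in the other NCD mice and 9685, 9021 and 6365 CPM on HFD. The part of these markers in the *Pparg* result was not tested. *Icam1* and *Pparg* had opposite signs in both fits.

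*Dlk1* (chr12:109452485-109463336) had few counts, 3, 52 and 29 on NCD and 12, 36 and 7 on HFD. The 3 counts of the first NCD library carry an exact Poisson 95% interval of 0.619 to 8.77, which covers counting error only. Levels were 0.091, 0.869 and 0.539 CPM on NCD and 0.208, 0.431 and 0.112 CPM on HFD. All HFD mice were below the second and the third NCD mice and above the first. The log2 fold change was -1.003 (95% interval -3.11 to 1.10, adjusted p = 0.467, edgeR), and -1.46 without the first NCD mouse (adjusted p = 0.177). A difference in *Dlk1* was not detectable at this depth and spread. Of 6 genes for Notch receptors and related ligands, none passed with all 6 mice (edgeR, 2 at an unadjusted p under 0.05, 2 by DESeq2, 0 by limma-voom), and *Notch2* passed as higher without the first NCD mouse (log2 fold change 0.58, adjusted p = 0.047).

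*F3* (chr3:121723537-121735052) encodes tissue factor, the cell-surface trigger of clotting. It was at 13.2, 35.03 and 54.0 CPM on NCD and at 52.6, 51.8 and 44.9 CPM on HFD. The HFD mice were close together, while the NCD mice spread over a wide range and the third was the highest of all 6. The log2 fold change was 0.54 (95% interval -0.60 to 1.69) with an adjusted p of 0.469 (edgeR), and 0.17 (-0.34 to 0.68) without the first NCD mouse. Neither value passed.

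Other genes of the tissue factor pathway passed where *F3* did not. Of 7 tested, 4 passed as higher with all 6 mice. *F7*, the clotting factor that binds tissue factor, was at 0.426, 1.15 and 1.40 CPM on NCD and at 55.7, 20.2 and 32.8 CPM on HFD (log2 fold change 5.17, adjusted p = 0.021, edgeR). *F10*, the substrate of that complex, had a log2 fold change of 3.92 (adjusted p = 0.028). Without the first NCD mouse the same number, 4, passed as higher, and *Tfpi*, the inhibitor of the complex, fell by 0.65 on the log2 scale (adjusted p = 0.036). The related inhibitor gene *Tfpi2*, named after its values were seen, passed as higher in both fits (log2 fold change 3.22, adjusted p = 0.021, and 3.01 without the first NCD mouse, adjusted p = 0.007). Of 8 other genes of the CD142+ population, *Abcg1*, a cholesterol exporter also high in macrophages, passed as higher (log2 fold change 2.85, adjusted p = 0.021). The macrophage markers given above were higher in the same 3 mice as *F7*, *F10* and *Abcg1*, and their part in these results was not tested. *Gdf10*, a TGF-beta family ligand, was at 28.4, 52.1 and 43.4 CPM on NCD and at 17.5, 15.7 and 6.50 CPM on HFD. It passed as lower only without the first NCD mouse (log2 fold change -1.84, adjusted p = 0.030), and the difference between the fits was not tested.

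*Cd34* (chr1:194938821-194961292) encodes a sialomucin of progenitors and endothelium. It was at 69.8, 139 and 116 CPM on NCD and at 171, 206 and 152 CPM on HFD. The diets did not overlap. A log2 fold change of 0.70 (95% interval 0.01 to 1.40) had an adjusted p of 0.166 (edgeR), and 0.48 without the first NCD mouse (adjusted p = 0.105). *Ly6a* (chr15:74994877-74998031), the gene of Sca-1, was at 136, 278 and 171 CPM on NCD and at 242, 604 and 520 CPM on HFD. The first HFD mouse was below the second NCD mouse, and the other HFD mice were well above all NCD mice. Its log2 fold change was 1.22 (95% interval 0.16 to 2.28, adjusted p = 0.129, edgeR), and 1.04 without the first NCD mouse (adjusted p = 0.151).

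*Ly6c1* (chr15:75044018-75048920), a GPI-anchored antigen, was at 47.5, 99.5 and 118 CPM on NCD and at 164, 219 and 177 CPM on HFD. All HFD mice were above all NCD mice, and the first NCD mouse was the lowest. With all 6 mice the log2 fold change was 1.08 (95% interval 0.22 to 1.94, adjusted p = 0.110, edgeR). Without the first NCD mouse the change was smaller, at 0.79 ± 0.18 (SE), and it passed (adjusted p = 0.0336). Endothelial markers, 8 genes, summed to 284, 811 and 949 CPM on NCD and to 1157, 995 and 1001 CPM on HFD. The first NCD mouse was thus lowest for *Cd34*, *Ly6a*, *Ly6c1* and these markers. Their sum was also higher in every HFD mouse than in every NCD mouse. Without the first NCD mouse 2 of the 8 endothelial markers passed as higher and none as lower. These were *Cldn5* (adjusted p = 0.044, edgeR) and *Pecam1* (adjusted p = 0.0496). The part of the endothelial markers in the *Cd34*, *Ly6a* and *Ly6c1* results was not tested.

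*Ly6c1* has a near-identical neighbour, *Ly6c2*, which monocytes express, so the assignment of reads between the pair is uncertain. Their coding sequences share 387 of 396 bases (97.7%). The first 90 coding bases from GENCODE vM21 are shown because they hold 6 of the 9 differing bases, which are in capitals.
Ly6c1: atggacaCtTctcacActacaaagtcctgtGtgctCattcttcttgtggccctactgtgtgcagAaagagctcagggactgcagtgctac
Ly6c2: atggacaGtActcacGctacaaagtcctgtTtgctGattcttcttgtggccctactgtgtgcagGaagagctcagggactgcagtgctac
Of all windows of 75 bases in the *Ly6c1* transcripts, 19.0% also occurred in another gene, 14.7% in *Ly6c2*. The share was 6.33% for *Ly6a* and under 1% for each other member. *Ly6c2* was at 16.9, 45.2 and 22.6 CPM on NCD and at 32.2, 86.0 and 96.3 CPM on HFD. Its log2 fold change was 1.34 (adjusted p = 0.158, edgeR), and unlike *Ly6c1* its diets overlapped. None of the 6 tested genes of the wider Ly6 family passed (edgeR, 2 at an unadjusted p under 0.05, 1 by DESeq2).

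Every HFD mouse was above every NCD mouse for 6 of 10 members, *Pdgfra*, *Pdgfrb*, *Pi16*, *Cd34*, *Ly6c1* and *Icam1*. That was so for 20.5% of all genes tested. Against the second and the third NCD mice alone it was again 6 of 10 members, beside 27.9% of all genes. Single mice stood out across several members. The second HFD mouse was the highest of all 6 for 5 members, *Pdgfra*, *Pi16*, *Cd34*, *Ly6a* and *Ly6c1*. The first NCD mouse was the lowest for 7, all but *Pdgfra*, *Dpp4* and *Pi16*.

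Fibroblast markers, the broader background of these cells, passed in part. Of 10, 3 passed as higher with all 6 mice, *Col1a1*, *Col1a2* and *Prrx1*, and 5 without the first NCD mouse, where *Col3a1* and *Thy1* joined them. None passed as lower in either fit, and these genes were named after their values were seen. *Col1a1*, a chain of fibrillar collagen, was at 122, 141 and 106 CPM on NCD and at 504, 597 and 491 CPM on HFD (log2 fold change 2.11, adjusted p = 0.019, edgeR). *Dcn*, the proteoglycan decorin of resting fibroblasts, was at 416, 900 and 747 CPM on NCD and at 716, 700 and 401 CPM on HFD (log2 fold change -0.18, adjusted p = 0.778), and it too was chosen after its values were seen. The sum over the list was 3156, 8345 and 7580 CPM on NCD and 9011, 9115 and 6111 CPM on HFD, with overlapping diets. *Gsn* was the largest part of it in every mouse, at 1891, 5658 and 5320 CPM on NCD and 4292, 3432 and 2418 CPM on HFD. The median log2 fold change over the list was 0.88 in both fits.

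**Figure D3:**
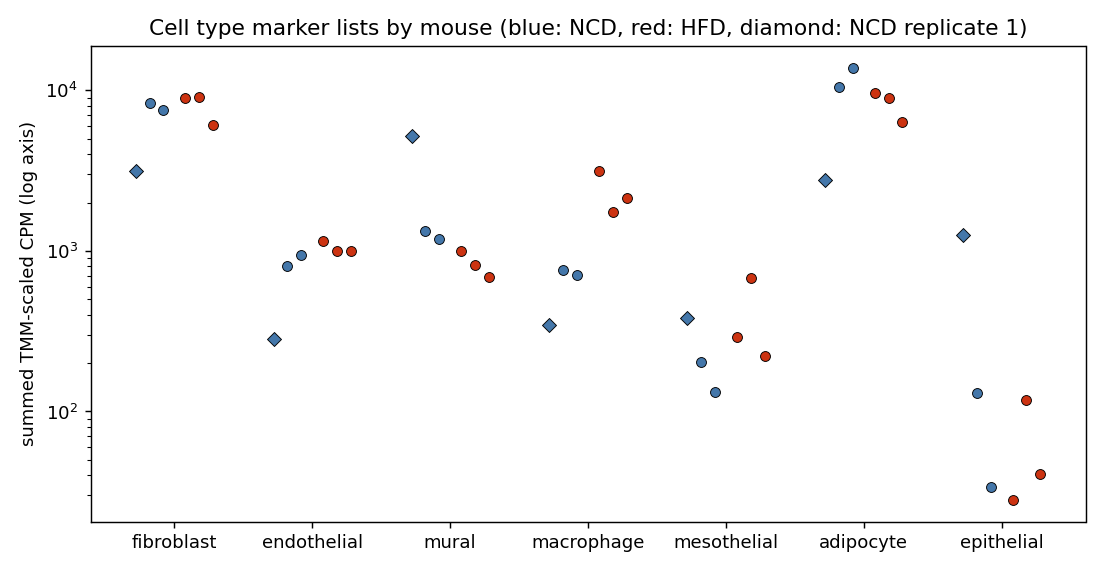
Summed TMM-scaled CPM of the marker genes of other cell types in each mouse, on a log axis, with the diets apart. The first NCD mouse is highest for mural (5226 CPM) and epithelial (1250 CPM) markers, and the HFD mice are highest for macrophage markers (1760 to 3131 CPM).

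The members were next compared with *Pdgfra* within each library, which does not depend on scaling between libraries. Of 9 ratios, 1 did not overlap between the diets, and no share over all genes was computed for such ratios. *Icam1* to *Pdgfra* was 0.356, 0.345 and 0.437 on NCD and 0.644, 0.696 and 0.833 on HFD, so *Icam1* was higher relative to the stromal receptor in all 3 HFD mice. The mean log2 ratio differed by 0.93 (exact permutation p = 0.1, the smallest that 3 against 3 can give). After Benjamini-Hochberg adjustment over the 9 ratios this permutation p was 0.54, so the ratio did not pass. It differed by 0.89 without the first NCD mouse. The *Pi16* ratio was 0.301, 0.255 and 0.166 on NCD and 0.393, 0.426 and 0.243 on HFD, and these overlapped. *Dlk1* to *Pdgfra* differed by -1.42 on the log2 scale with all 6 mice, and by -2.39 without the first NCD mouse, where the diets no longer overlapped.

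**Figure D4:**
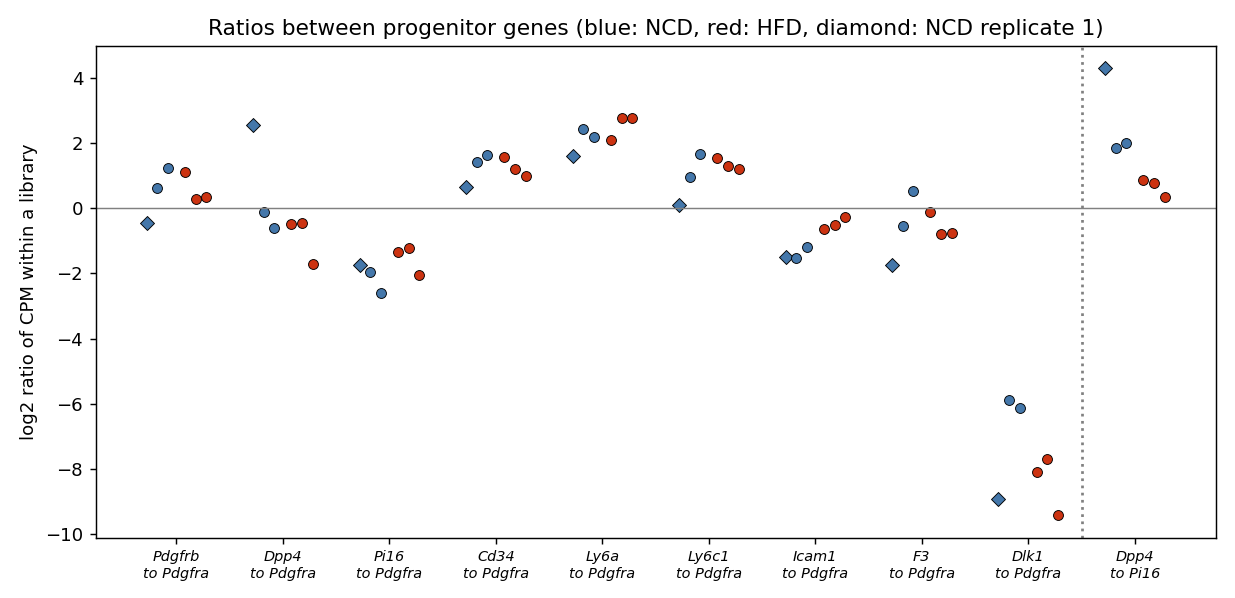
Ratio of each member to *Pdgfra* within a library, and of *Dpp4* to *Pi16*, on a log2 axis, with 1 point per mouse. *Icam1* to *Pdgfra* lies, as a linear ratio, between 0.345 and 0.437 on NCD and between 0.644 and 0.833 on HFD, and *Dpp4* to *Pi16* is at 19.6 in the first NCD mouse.

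Levels of different members were compared per length of exon, as TMM-scaled FPKM (CPM divided by the kilobases of exon). On HFD the order ran from *Ly6a* at 453 ± 188 FPKM (SD, n = 3) through *Ly6c1* at 121 ± 18.9 and *Cd34* at 67.5 ± 10.4. *F3* at 26.6, *Icam1* at 21.3 and *Pdgfrb* at 19.8 FPKM followed, and these were not in the same order in every mouse. *Pdgfra* at 8.45 and *Dpp4* at 8.21 FPKM were not ordered either, and *Pi16* at 4.63 and *Dlk1* at 0.052 FPKM came last. On NCD the order began the same way, with *Ly6a* at 194, *Ly6c1* at 57.1 and *Cd34* at 41.4 FPKM. There *Dpp4* was next at a mean of 21.2 FPKM, but 6.83 FPKM in the second and the third mice. *F3* at 18.2, *Pdgfrb* at 12.1, *Icam1* at 6.59 and *Pdgfra* at 5.09 FPKM came before *Pi16* at 1.93 and *Dlk1* at 0.105 FPKM. *Cd34* and *Dpp4*, *Dpp4* and *F3*, and *Pdgfrb* and *Icam1* were not ordered alike in all 3 NCD mice. The sorting antigens shared with endothelium thus had the highest mean levels on both diets, although in the first NCD mouse *Dpp4*, at 49.9 FPKM, was above *Ly6c1* at 30.7 and *Cd34* at 26.7 FPKM.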

How the data were processed

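RNA was extracted from gWAT of 6 mice with TRIzol, made into stranded mRNA libraries and sequenced. The deposited values are raw read counts per gene, 1 column per mouse, which the authors left without normalization. The submitters' processing notes name bcl2fastq 2.20.0, Trimmomatic, HISAT2 2.1.0, StringTie 1.3.4d, DESeq2 and builds mm10 and GRCm38; the sources used here do not name the counting program or the annotation. Of 19790 NCBI identifiers, 19742 were paired with symbols and coordinates from RefSeq GRCm38.p6; the other 48 held 0.629% of the counts. Exon lengths came from GENCODE vM21.

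The members and gene lists were chosen with earlier results of these data known. Genes were kept by filterByExpr with a count of at least 10 and a total of at least 15. After TMM scaling, glmQLFit and glmQLFTest of edgeR 4.0.16 (R 4.3.3) gave the tests, with Benjamini-Hochberg adjustment over all genes and a threshold of 0.05. Dividing the log2 fold change by the root of F gave its standard error. Intervals use the total degrees of freedom. limma 3.58.1 and DESeq2 1.42.0 were alternatives, as were other scalings, no filter, a replicate block and leaving out each mouse. The procedure was tested on simulated data. From each list, genes past the threshold with all 6 mice or without the first NCD mouse are named, up to 2 rises and 2 falls; PDGF ligands and *Ly6c2* are always named.

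Depth of 49575113 to 66360046 counts makes counting error small for all members except *Dlk1*; the spread between mice limits the rest. Any 2 mice of 1 diet differed beyond sampling noise (chi-square of 112 to 3461 for each degree of freedom), so none was counted as a duplicate. Replicates are labelled as separate samples, and nothing says how the mice were caged, so p-values measure the spread between these samples. Sequences came from RefSeq and GENCODE; *Ly6a* and *Pdgfrb* windows were not used here.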

Additional observations from a re-analysis of the deposited data

How the results depend on the processing

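*Icam1* kept its direction in all 15 alternative fits across genes, with log2 fold changes between 1.57 and 2.2025, and passed in 9 of them. Total counts only called 2 members (*Pi16* and *Icam1*) and 959 of 15241 genes. It put the all-gene median at 0.44, against -0.08 with TMM, and the members' median at 1.18. DESeq2 called 5 members as higher (*Pdgfra*, *Pi16*, *Ly6a*, *Ly6c1* and *Icam1*). It called 3904 of 15241 genes, 2153 of them as higher, against 1139 by edgeR, and the cause was not tested. Leaving out each mouse gave 0 to 2 members and 2 to 3234 genes. The highest counts were without the first NCD mouse, and 7 genes or fewer passed without any other mouse. Where no member passed, 2 to 6 of 10 had an unadjusted p under 0.05, beside 2988 to 4345 of the 15241 to 15764 genes tested. The lowest count of members, without the second HFD mouse, stood beside 3119 of 15541 genes, a share close to that of the members. Over the fits leaving out a mouse, *Dpp4* ran from -1.82 to 0.28 and turned its sign without the first NCD mouse. Between 1 and 3 ratios to *Pdgfra* did not overlap between the diets without each mouse, and 2 did not with 1 CPM added to the levels. These counts too have no share over all genes beside them.

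The labels give both diets replicates 1, 2 and 3. Deviations from the group means of same-numbered mice had correlations of -0.06, -0.05 and 0.01, and no mouse correlated best with its own number. Only 3 mice per diet entered, and the NCD libraries differed in their seminal vesicle share. The check therefore cannot tell whether same-numbered mice shared a cage or a batch. With the replicate block 12 genes and 0 members passed by edgeR. In that fit 6 members had an unadjusted p under 0.05, beside 3571 of 15241 genes. *Icam1* had a log2 fold change of 1.66 there (adjusted p = 0.0675, edgeR). Precision is limited by 3 mice per diet, by the first NCD library, and for *Dlk1* by depth.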

Other observations

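Among 9 regulators of adipogenic commitment that the text above does not describe, *Ccn5* passed with all 6 mice. *Ccn5*, a secreted matricellular protein also known as WISP2 that holds back commitment of precursors, was at 3.50, 3.06 and 3.70 CPM on NCD and at 156, 104 and 185 CPM on HFD (log2 fold change 5.44, adjusted p = 0.004, edgeR). The diets were far apart, and after TMM scaling the first NCD mouse was like the other NCD mice. *Gata2* and *Gata3* encode transcription factors that preadipocytes and several epithelia express. *Gata2* was at 702, 75.2 and 22.8 CPM on NCD and at 10.02, 9.63 and 9.54 CPM on HFD. *Gata3* was at 254, 24.0 and 5.65 CPM on NCD and at 1.20, 2.42 and 1.58 CPM on HFD. Both passed as lower without the first NCD mouse (log2 fold changes -2.32 and -3.08, adjusted p = 0.024 and 0.027) and not with all 6. They followed the order of the seminal vesicle share across the NCD mice, and its part in the result was not tested.

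Other genes with markers of other cell types were as follows. T cell markers, 6 genes, summed to 13.4, 10.9 and 7.09 CPM on NCD and to 6.39, 10.6 and 13.4 CPM on HFD, with full overlap, and none passed (edgeR, 0 at an unadjusted p under 0.05, 0 by DESeq2). Of 2 relatives of *Cd34*, *Podxl* and *Podxl2*, neither passed (edgeR, 2 at an unadjusted p under 0.05, 0 by DESeq2). *Podxl* was at 277, 112 and 84.1 CPM on NCD and at 69.8, 66.9 and 69.5 CPM on HFD. *Podxl2* was at 2.62, 4.87 and 3.94 CPM on NCD and at 8.47, 6.99 and 4.92 CPM on HFD.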
